A study of Mus musculus with 2 samples.

Results

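Open chromatin was described at 5 genes of the second heart field, Isl1, Fgf8, Fgf10, Six2 and Eya1, among 21755 protein-coding genes of the autosomes and the X chromosome. The genes were taken by name from the GENCODE M21 annotation of mm10 (GRCm38), and no peak value entered the rule. The data were ATAC-seq peaks of whole hearts from wildtype FVB mouse embryos at E11.5, at 49 to 51 somites, in 2 replicates that each held a pair of hearts. All samples form a single untreated group, so no conditions were compared. Because whole hearts were used, a region open in few cells and a region weakly open in many cells cannot be told apart. ATAC-seq inserts sequencing adapters into accessible DNA with the Tn5 transposase, and a peak marks a stretch where insertions pile up. A shared region is the stretch that a peak of replicate 1 and a peak of replicate 2 both cover, by at least 1 bp. Each value below is the fold enrichment of a peak, the ratio of its signal at the summit to the background that the peak caller expected, and it is given for replicate 1 and then for replicate 2. The lists hold no read totals, so depth is unknown and peaks carry no counting interval.

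The second heart field is a population of progenitors in the pharyngeal mesoderm that adds cells to both poles of the growing heart tube, including the outflow tract, the right ventricle and the inflow region. ISL1, a LIM-homeodomain transcription factor, marks these progenitors and is kept in the sinoatrial node. FGF8 and FGF10 are secreted growth factors that act through FGF receptors on the progenitors and their neighbours. SIX2 is a SIX-family homeodomain protein, and EYA1 is a co-activator and phosphatase that binds SIX-family proteins.

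The lists held 118027 peaks in replicate 1 and 114783 in replicate 2, which gave 98924 shared regions. Over all shared regions the log2 ratio of replicate 2 to replicate 1 had a median of -0.11 and an SD of 0.53. Marker genes fixed for the cell types of the dissection were checked for a shared region within 1 kb of a start, which 68.1% of all protein-coding genes had. A region was present at 6 of 6 cardiomyocyte, 4 of 4 endocardial and endothelial, 3 of 3 epicardial and 3 of 3 erythroid genes, at 3 of 4 pharyngeal endoderm genes, 2 of 4 neural genes, 1 of 2 skeletal muscle genes and 0 of 2 liver genes. With so few genes per list, these counts do not tell the lists apart from genes in general, and the part that cells of other types have in the regions below was not tested.

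Sequences that carry the description are shown first, each from the C57BL/6J reference GRCm38 and written 5′ to 3′. The initial one is the 150 bases just before the outermost protein-coding start of Isl1, which lay in a strong shared region. It is on the minus strand, at chr13:116309690-116309839, and capitals mark CpG dinucleotides.
Isl1: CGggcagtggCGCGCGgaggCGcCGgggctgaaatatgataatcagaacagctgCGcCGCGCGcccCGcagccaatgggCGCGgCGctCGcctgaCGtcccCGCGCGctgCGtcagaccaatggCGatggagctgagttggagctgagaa
The stretch holds 21 CpG and has a GC content of 68.7%.

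The next sequences are 200 bases around the summits (centred on the mean position of the summits of both replicates) of the strongest region in each window that lies farther than 1 kb from every protein-coding start, on the plus strand. Capitals mark matches to any of 9 short motifs, which are named with their counts further on. Names give the distance of the region from the gene's start, with + for downstream and - for upstream. The positions are chr13:116187040-116187239 for Isl1 +122.5 kb, chr19:45548352-45548551 for Fgf8 +194.5 kb, chr13:118759058-118759257 for Fgf10 +44.4 kb, chr17:85585837-85586036 for Six2 +102.4 kb and chr1:14506580-14506779 for Eya1 -196.7 kb.
Isl1 +122.5 kb: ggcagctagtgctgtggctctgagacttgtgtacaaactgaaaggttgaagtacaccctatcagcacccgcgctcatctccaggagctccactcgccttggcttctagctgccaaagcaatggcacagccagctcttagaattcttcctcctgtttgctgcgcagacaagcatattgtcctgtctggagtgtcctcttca
Fgf8 +194.5 kb: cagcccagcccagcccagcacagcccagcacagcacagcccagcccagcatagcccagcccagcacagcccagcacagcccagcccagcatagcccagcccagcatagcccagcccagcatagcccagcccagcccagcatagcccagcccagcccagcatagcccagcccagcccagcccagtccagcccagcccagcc
Fgf10 +44.4 kb: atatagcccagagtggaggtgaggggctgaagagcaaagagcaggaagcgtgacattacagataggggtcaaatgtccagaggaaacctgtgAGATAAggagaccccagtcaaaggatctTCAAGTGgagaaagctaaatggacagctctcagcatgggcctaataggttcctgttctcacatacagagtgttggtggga
Six2 +102.4 kb: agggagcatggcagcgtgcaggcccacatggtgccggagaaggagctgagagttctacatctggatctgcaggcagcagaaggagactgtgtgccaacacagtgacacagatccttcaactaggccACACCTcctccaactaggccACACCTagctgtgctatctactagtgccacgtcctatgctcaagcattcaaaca
Eya1 -196.7 kb: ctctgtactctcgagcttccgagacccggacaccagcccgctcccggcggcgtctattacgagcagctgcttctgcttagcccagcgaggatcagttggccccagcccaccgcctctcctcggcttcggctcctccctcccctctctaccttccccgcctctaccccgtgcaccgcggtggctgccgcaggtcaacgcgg
The Fgf8 sequence is a tandem array in which the 4 letters cagc begin at 33 positions, and its 191 overlapping 10-mers hold 40 distinct ones. The Isl1, Fgf10 and Eya1 sequences each hold 191 distinct 10-mers, and the Six2 sequence holds 184. The Eya1 sequence is rich in CpG, with 19 in the 200 bases, against 4 at Isl1 +122.5 kb and 1 at Fgf10 +44.4 kb.

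Since the Fgf8 array and a Six2 region rich in repeats lead their windows, the region ranked after each is shown too, at chr19:45790717-45790916 and chr17:85579379-85579578. The last pair are the strongest regions of the Isl1 gene desert that lie beyond 250 kb of the gene and away from starts, at chr13:115610749-115610948 and chr13:116712329-116712528.
Fgf8 -47.9 kb: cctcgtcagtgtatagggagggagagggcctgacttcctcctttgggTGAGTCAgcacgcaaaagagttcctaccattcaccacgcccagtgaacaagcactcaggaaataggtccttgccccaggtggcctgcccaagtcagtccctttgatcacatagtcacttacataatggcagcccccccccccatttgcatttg
Six2 +109.2 kb: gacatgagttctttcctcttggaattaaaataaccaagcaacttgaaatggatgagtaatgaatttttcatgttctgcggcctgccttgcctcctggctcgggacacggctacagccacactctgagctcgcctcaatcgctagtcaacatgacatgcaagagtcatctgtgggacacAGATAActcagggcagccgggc
Isl1 +698.8 kb: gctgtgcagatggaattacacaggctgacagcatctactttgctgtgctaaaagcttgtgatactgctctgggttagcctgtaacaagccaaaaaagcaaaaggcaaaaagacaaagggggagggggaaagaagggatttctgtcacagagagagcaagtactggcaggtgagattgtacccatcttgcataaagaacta
Isl1 -402.7 kb: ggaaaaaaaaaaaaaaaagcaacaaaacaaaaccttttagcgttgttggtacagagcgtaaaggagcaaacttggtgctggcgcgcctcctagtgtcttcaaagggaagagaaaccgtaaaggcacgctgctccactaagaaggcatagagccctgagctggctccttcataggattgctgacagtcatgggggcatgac

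Isl1, Fgf10, Six2 and Eya1 had a shared region within 1 kb of an annotated start, and Fgf8 had none. This is 4 of 5 genes, beside 68.1% of all 21755 protein-coding genes (14820 genes), so the count alone does not set these genes apart. The 5 genes have 25 annotated transcripts with 24 distinct starts, of which 16 had a shared region within 1 kb. Over the distinct starts of all protein-coding genes the share was 58.2%.

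The strongest start region, by the mean of both replicates, was that of Isl1. Its values were 29.3 and 28.9, over 1672 bp at chr13:116308799-116310470, and the region covered 3 starts, 2 of them of protein-coding transcripts. The summits of the replicates lay 129 and 80 bp upstream of the outermost start. In each list over 95% of peaks were lower (95.7% and 95.4%). Weaker regions lay near the internal starts of Isl1, at 5.98 and 4.78 over a retained-intron start, at 2.99 and 4.02 and at 6.79 and 5.53 between that start and the next, and at 3.53 and 3.52 in a stretch of 47 bp. The internal regions stayed near the bottom or the middle of each list, well below the main start in both replicates.

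Eya1 had 2 start regions. The one at its outermost starts, chr1:14309414-14310617, gave 29.9 and 26.1 and covered 5 of the 9 distinct starts. A weaker region at chr1:14304536-14304932, over 3 starts inside the gene, gave 5.70 and 5.03. The remaining Eya1 start, at chr1:14231492, had no peak in either replicate within 1 kb, and the nearest shared region was 3531 bp away.

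Fgf10 had a single start region, at its protein-coding start (chr13:118713481-118716841), with values of 18.7 and 17.1. This region was 3361 bp long, longer than 98.0% of the strongest start regions of all genes, whose median was 1351 bp. The starts of the 2 noncoding Fgf10 transcripts, at chr13:118669791 and chr13:118669824, had no peak in either list within 1 kb. Fgf10 thus combined a moderate height with an unusually broad region.

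Six2 had its region at chr17:85687619-85689303, 1685 bp long, with 20.4 and 13.1. The log2 ratio of the replicates there was -0.64, against -0.02 at the strongest start region of Isl1, -0.13 at Fgf10 and -0.19 at Eya1. The SD of this ratio was 0.36 over the regions of the 5 genes and 0.53 over all shared regions. The replicates thus differed most at Six2 among the 4, but 2 pools give no error for the height at a single gene. Isl1 and Eya1 gave 26.1 to 29.9 and did not separate from each other, and both lay above Fgf10 and Six2 in either replicate. The Fgf10 and Six2 values overlapped (13.1 to 20.4). Among the strongest start regions of all genes, whose median mean fold enrichment was 24.5, 63.4% were lower than Isl1, 60.4% than Eya1, 32.9% than Fgf10 and 30.3% than Six2.

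At Fgf8, each replicate had 1 weak peak near the starts, but not at the same place. The peak of replicate 1, chr19:45743042-45743279, had a fold enrichment of 3.26 with its summit 189 bp upstream of the outermost start. The peak of replicate 2, chr19:45742467-45742773, had 3.52 with its summit 328 bp downstream. They were separated by 268 bp, and their summits by 517 bp. Only 0.592% of replicate 1 peaks and 9.97% of replicate 2 peaks were lower, so both sit near the detection limit of their lists. The nearest shared region was 3482 bp from the outermost start. With the peaks of a single replicate used alone, Fgf8 had a peak at a start in either list, so its lack of a shared region rests on the requirement that the replicates overlap.

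**Figure D1:**
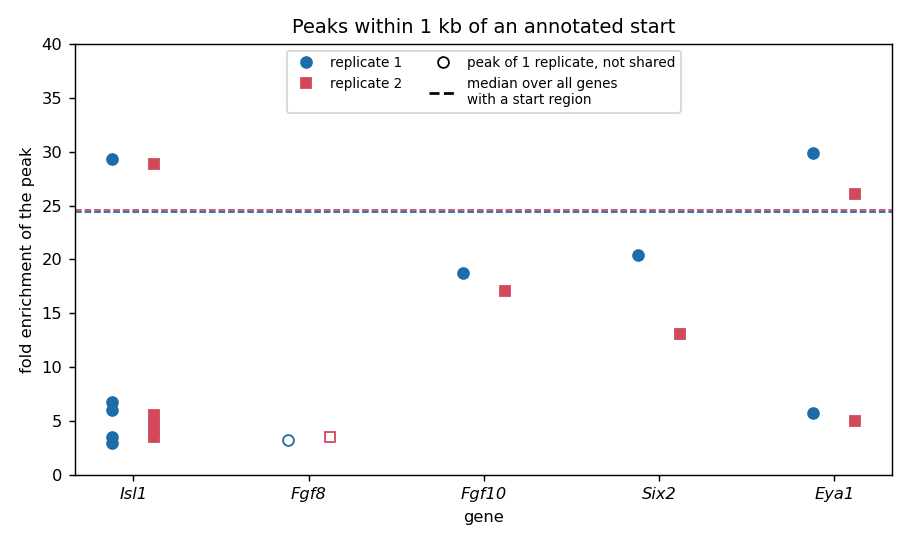
Fold enrichment (vertical axis) of peaks within 1 kb of an annotated start for each gene, with circles for replicate 1 and squares for replicate 2. Filled symbols are shared regions, open symbols are the Fgf8 peaks of 3.26 and 3.52 that do not overlap, and dashed lines are the medians over all genes with a start region (24.4 and 24.6). The strongest regions of Isl1 and Eya1 lie above those lines, and the weaker regions of both and those of Fgf10 and Six2 lie below them.

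The bases before the starts did not follow the peak heights. In the 500 bp before the outermost protein-coding start, the GC content was 70.8% for Isl1, 62% for Fgf10, 65.8% for Six2 and 39.4% for Eya1. The ratio of observed to expected CpG was 0.931, 0.563, 0.781 and 0.465 in the same order. Eya1 thus had the lowest GC and CpG before its start and a start region as high as that of Isl1. The Eya1 summits, however, lay 413 and 470 bp downstream of that start. Within the strongest start regions themselves, the CpG ratio was 0.792 for Isl1, 0.426 for Fgf10, 0.858 for Six2 and 0.752 for Eya1.

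In the gene bodies with 250 kb on each side, 117 shared regions were found. Their median fold enrichment was 6.52 and 5.53, and their median length was 378 bp. Of these regions 95 lay farther than 1 kb from every protein-coding start, 62 were intergenic, 20 lay in introns, 4 overlapped exons and 8 lay in lncRNA genes. The rank correlation of the replicates over the 117 regions was 0.786 (Spearman, across regions that share libraries), beside 0.770 over all shared regions. In the same windows 32 of 147 replicate 1 peaks and 30 of 144 replicate 2 peaks had no counterpart, and the highest of these were 5.16 and 5.53. Peaks above that height were therefore found in both lists in every window.

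**Figure D2:**
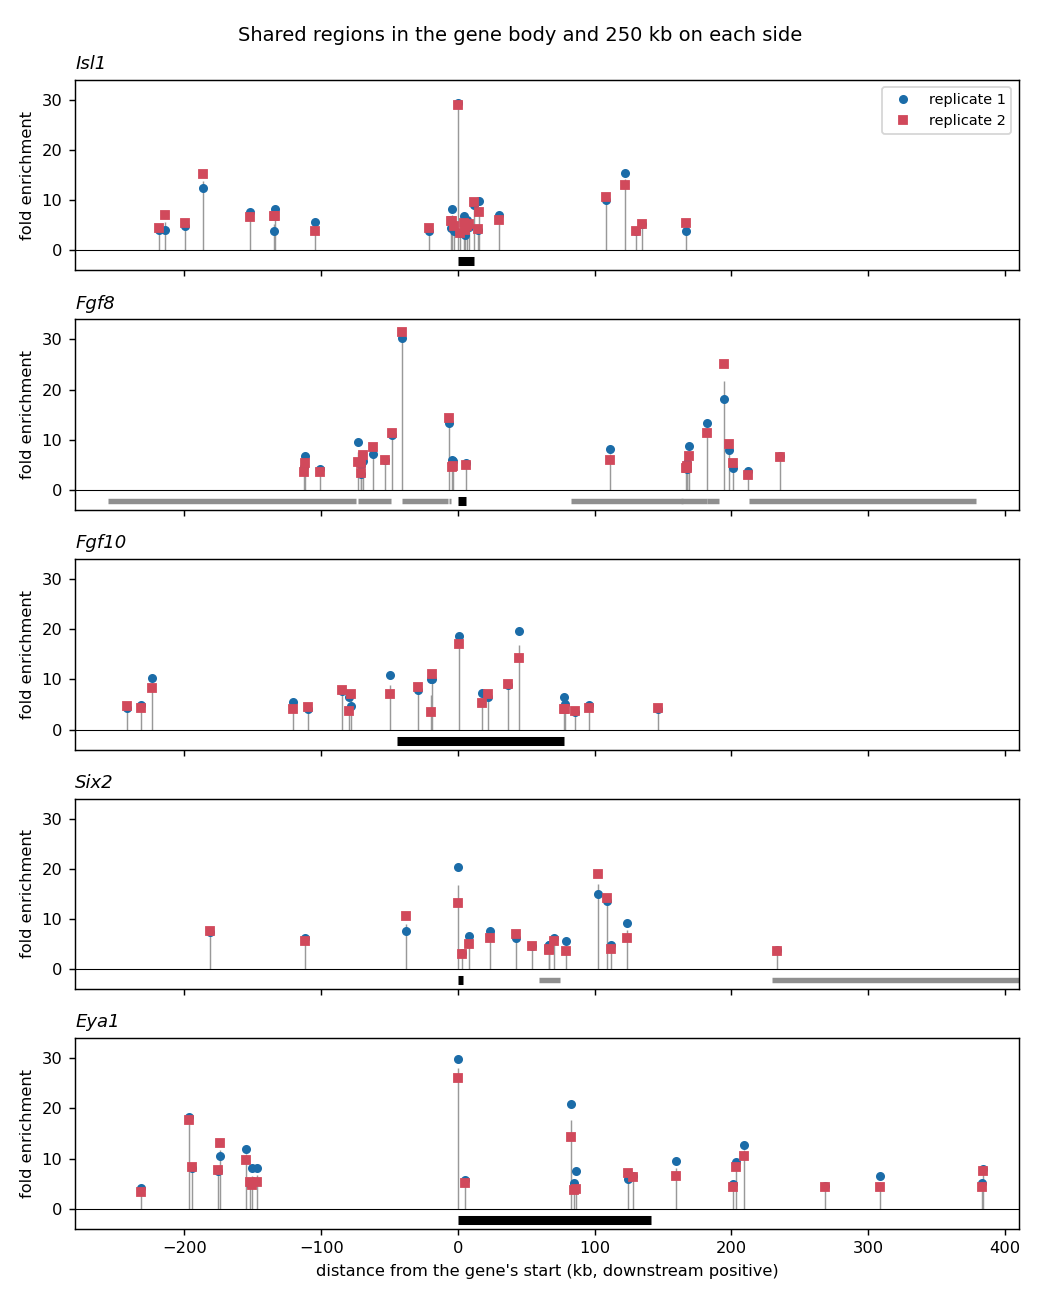
Fold enrichment (vertical axis) of every shared region against its distance from the gene's start in kb (horizontal axis, downstream positive), with circles for replicate 1, squares for replicate 2 and grey stems up to the mean. Black bars are the gene and grey bars other protein-coding genes; the Fgf8 window holds 9 protein-coding genes and the Isl1, Fgf10 and Eya1 windows 1 each.

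The Isl1 window held 27 shared regions, or 5.28 per 100 kb, a density higher than in 47.5% of gene windows. Isl1 is the only protein-coding gene there, and its starts were the nearest for all 27. The strongest distal region, +122.5 kb (chr13:116186779-116187684), gave 15.5 and 13.1. A region at -186.2 kb (chr13:116495500-116496212) gave 12.5 and 15.3, so the order of this pair turned between replicates. The next, +108.1 kb, gave 10.1 and 10.6. All 3 are intergenic. Close to the gene, 3 regions lay 12.1 to 15.7 kb downstream of the start and past the gene's end, with 8.96 and 9.55 at +12.1 kb, and 3 lay 2.7 to 4.8 kb upstream, with 8.15 and 5.78 at -4.2 kb. The farthest region of the window, -218.8 kb, gave 4.07 and 4.53.

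The Fgf8 window held 26 regions, or 5.14 per 100 kb (45.7% of gene windows lower). It holds 9 protein-coding genes, more than the other 4 windows, and 11 of its 26 regions lay at a protein-coding start, none of them that of Fgf8. The highest was the start region of Mgea5, 40.6 kb upstream, with 30.2 and 31.4, and the start region of Npm3, 6.4 kb upstream, gave 13.3 and 14.3. Fgf8 was the nearest gene for 1 region, at +5.9 kb over an Fgf8 exon, with 5.43 and 5.03. The region nearest to the starts lay at -3.7 kb with 5.70 and 4.78, and a Npm3 start was closer to it. By position alone, then, nearly all open chromatin around Fgf8 was nearer to another gene.

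The leading distal region of the Fgf8 window was the tandem array at +194.5 kb (chr19:45548075-45548831), with 18.2 and 25.1, and it lay 12079 bp from the start of Poll. Of its 726 overlapping 32-mers, 80.4% occurred once in the reference chromosomes and others up to 13 times. The array is that of the C57BL/6J reference, whereas the hearts were FVB, so the number of copies in these samples is unknown. The part of these repeats in the height was not tested. The next distal region, -47.9 kb (chr19:45790534-45791034), gave 10.9 and 11.3, and 100% of its 32-mers were unique. The +197.9 kb region gave 7.88 and 9.05. The farthest region, +235.2 kb, overlaps an exon of Btrc and gave 6.79 and 6.54.

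The Fgf10 window was wider, since the gene body spans 122325 bp, and held 22 regions, or 3.54 per 100 kb (27.5% of gene windows lower). Of these, 7 lay in introns of Fgf10 away from its starts, and Fgf10 was the nearest gene for 19. The strongest distal region, +44.4 kb (chr13:118758713-118759402), is intronic and gave 19.6 and 14.3, about the height of the start region itself. Another intronic region, -19.3 kb from the protein-coding start (chr13:118695205-118695613), gave 10.1 and 11.1, and an intergenic region at -223.9 kb gave 10.3 and 8.30. The intronic region 28.9 kb upstream gave 7.88 and 8.55. The largest replicate difference in the window was at -19.7 kb, with 10.1 and 3.52, where 1 broad peak of replicate 1 met separate peaks of replicate 2. The farthest region, -242.0 kb, gave 4.35 and 4.78 and lay nearer to Mrps30.

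The Six2 window held 18 regions, the fewest, or 3.57 per 100 kb (28.0% of gene windows lower), and its count was 28 with replicate 1 alone and 25 with replicate 2 alone. Most of them lay downstream of Six2, toward the neighbouring gene Six3, also a SIX-family homeodomain gene: Six3 was nearest for 11 regions and Six2 for 6. The highest distal region, +102.4 kb (chr17:85585530-85586228), gave 14.9 and 18.9, and 51.9% of its bases are soft-masked repeats in the reference. The region at +109.2 kb (chr17:85578293-85579779), with no masked base, gave 13.6 and 14.1 over 1487 bp. Both were nearer to the Six3 start, at 27730 and 34573 bp. Upstream of Six2, the region at -37.9 kb gave 7.61 and 10.6 and had Six2 as its nearest gene. The farthest region, +233.6 kb in an intron of Camkmt, gave 3.80 and 3.52.

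The start regions of Six3 were weak, at 4.89 and 3.77 and at 4.89 and 4.02, and in replicate 1 the same peak covered both. The start of Six2 (20.4 and 13.1) was higher than that of Six3 in each replicate, although the strong regions between +102.4 and +109.2 kb were closer to Six3.

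The Eya1 window held 24 regions, or 3.74 per 100 kb (29.9% of gene windows lower), and Eya1 was nearest for 21. Upstream of the Eya1 start no shared region was found until -146.8 kb, and 8 regions then followed between 146.8 and 196.7 kb. Their values ran from 7.61 to 18.2 in replicate 1, apart from 4.89 at -152.4 kb, and from 4.78 to 17.6 in replicate 2. The strongest, -196.7 kb (chr1:14506148-14507690), gave 18.2 and 17.6 over 1543 bp, with a GC content of 57.7% and a CpG ratio of 0.575. Its CpG ratio was close to the median of regions at protein-coding starts (0.586) and above that of other regions (0.212).

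Within the Eya1 gene, the region at +82.6 kb (chr1:14227397-14227961) is intronic and gave 20.9 and 14.3. It had a GC content of 39.3% and no CpG, so the strongest regions on either side of the Eya1 start differ in base composition. A region at -174.3 kb gave 10.6 and 13.1. The farthest region, +384.1 kb and past the end of the gene, gave 7.88 and 7.54 and was nearer to Xkr9.

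The windows of these genes held fewer shared regions per 100 kb than the median gene window, although Isl1 and Fgf8 passed that median with the peaks of replicate 1 alone. That median was 5.48 per 100 kb, with quartiles of 3.29 and 7.67, and the median window held 11 protein-coding genes. When regions at starts were left out, the densities were 4.30 per 100 kb for Isl1, 2.96 for Fgf8, 3.37 for Fgf10, 2.98 for Six2 and 3.43 for Eya1, beside a median of 3.46. Isl1 then ranked above 64.0% of genes and the other 4 above 40.8% to 49.6%. Leaving starts out raised the rank of the 4 genes with few neighbours and lowered that of Fgf8. The highest distal mean fold enrichment per window was 14.3 for Isl1, 16.9 for Fgf10, 16.9 for Six2, 17.9 for Eya1 and 21.7 for Fgf8, beside a median of 18.5. The Fgf8 value is that of the tandem array and the Six2 value that of the region rich in repeats. The next distal regions there had means of 11.1 and 13.8, so without the array no window of these genes was above the median. With a stricter limit of q at most 1e-10, 51 of the 117 regions were left, 10 of them at Isl1, 11 at Fgf8, 9 at Fgf10, 8 at Six2 and 13 at Eya1.

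**Figure D3:**
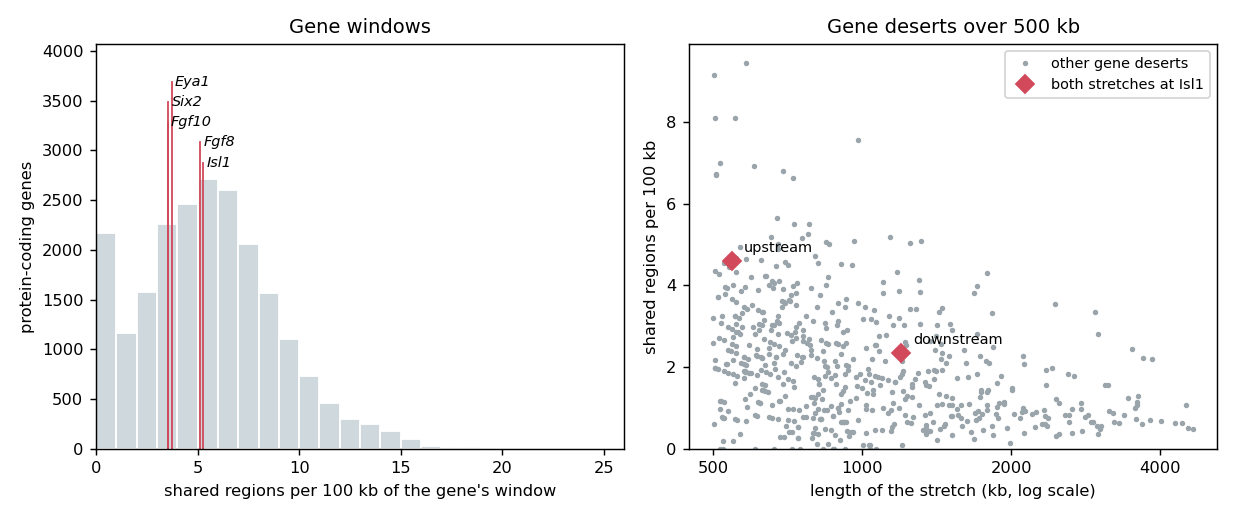
The left panel counts protein-coding genes (vertical axis) by shared regions per 100 kb of their window (horizontal axis), with lines for the 5 genes at 3.54 to 5.28, beside a median of 5.48. The right panel plots shared regions per 100 kb against length in kb (log scale) for each gene desert over 500 kb, with diamonds for the stretches upstream (4.59) and downstream (2.34) of Isl1.

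Isl1 lies in a gene desert with no protein-coding gene for 1741 kb apart from itself. The downstream stretch runs 1196 kb to Itga1 (chr13:115101965-116298280) and the upstream stretch 545 kb to Parp8 (chr13:116309690-116854819). Together they held 53 shared regions, of which the gene's own start region and 1 of the 2 at the Itga1 start touch the ends. Isl1 was the nearest protein-coding gene for 25 of the 53.

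The upstream stretch was the denser. It held 25 regions, or 4.59 per 100 kb, and 94.8% of 600 other autosomal gene deserts over 500 kb were less dense. The downstream stretch held 28, or 2.34 per 100 kb, with 65% of the others less dense and a desert median of 1.80. Without regions at starts the densities were 4.40 and 2.17, above 94.2% and 63.2% of the others. These ranks take deserts of all lengths together, and stretches of like length were not compared. For comparison, with regions at starts kept, the gene desert beside Shox2 held 33 regions in 675 kb, or 4.89 per 100 kb. Shox2 is a homeobox gene of the sinus node and limb, after which the series is titled.

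Regions were spread unevenly along the desert. Downstream of Isl1, 9 regions lay within 200 kb of the start, then 150.9 and 148.4 kb were empty on either side of a weak region at +317.7 kb (3.80 and 3.77). The longest empty stretch ran 188.3 kb, between 833.7 and 1022 kb downstream, and all regions from +628.3 kb outward, on both sides of it, lay nearer to the Itga1 end of the desert than to Isl1. Upstream, 160.2 kb were empty between 218.9 and 379.1 kb.

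Beyond that gap, 8 regions lay within 26.3 kb (chr13:116688831-116715176), from 379 to 405 kb upstream of Isl1, and covered 5227 bp. The strongest were -402.7 kb (13.0 and 12.6) and -396.2 kb (12.5 and 12.8). The adjoining region at -401.9 kb had 9.55 in replicate 2, and in replicate 1 it was covered by the same peak as -402.7 kb, so it had no summit of its own there. The -402.7 and -396.2 kb regions were as high as -186.2 kb (12.5 and 15.3) within the spread of the replicates, and only the Isl1 start was clearly higher in this stretch. The next distal region of the stretch, -133.8 kb, gave 8.15 and 6.79, and the summit of its replicate 2 peak lay outside the shared part. All 8 regions within these 26.3 kb were nearer to the start of Parp8 than to that of Isl1, and none of them lay in an annotated lncRNA gene.

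In the downstream stretch the highest distal regions were +122.5 kb (15.5 and 13.1), +698.8 kb (13.9 and 12.8) and +108.1 kb (10.1 and 10.6), followed by +12.1 kb (8.96 and 9.55) and +15.7 kb (9.78 and 7.54). The +698.8 kb region (chr13:115610505-115611212) was nearer to the start of Itga1 than to that of Isl1. It stood alone, since the neighbouring regions, 725 and 628.3 kb downstream, gave 8.96 and 5.78 and 6.25 and 7.04. The highest distal mean fold enrichment was 14.3 downstream and 13.9 upstream, beside a desert median of 14.7, so that 47.7% and 45.7% of the other deserts were lower. With regions at starts kept, the highest was 26.8 downstream and 29.1 upstream, above 67% and 71.8% of the others. Heights below the highest region were not compared among deserts.

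**Figure D4:**
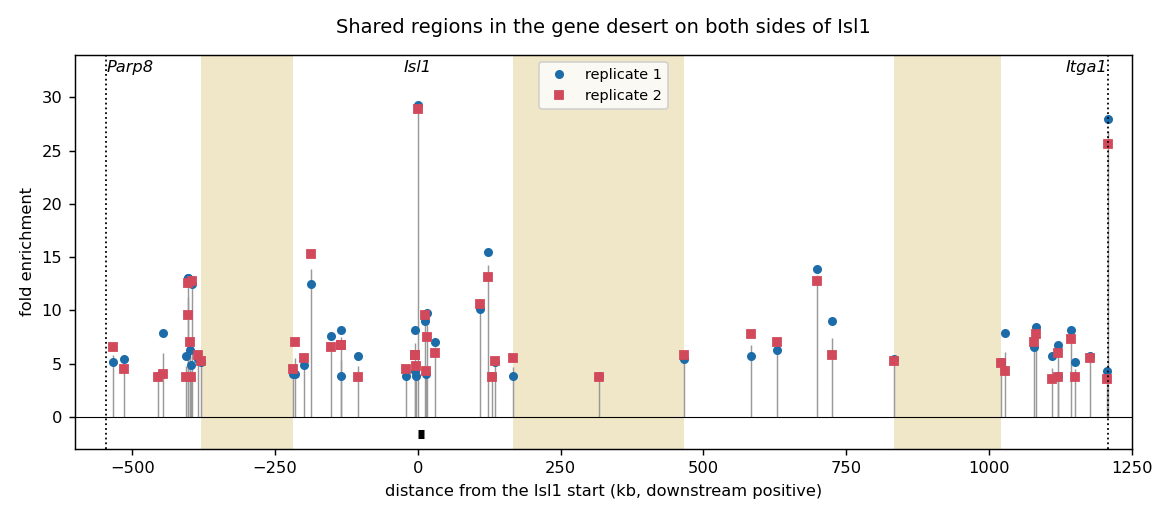
Fold enrichment (vertical axis) of the 53 shared regions of the Isl1 gene desert against distance from the Isl1 start in kb (horizontal axis, downstream positive), with circles for replicate 1, squares for replicate 2 and stems up to the mean. Shading marks the 4 longest stretches without a shared region (188.3, 160.2, 150.9 and 148.4 kb), the black bar is Isl1 and dotted lines are the ends of the desert at Parp8 and Itga1.

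Short motifs of factors known from the heart, and general ones, were searched in the 300 bp around the midpoint of each region, on both strands. They were AGATAA for GATA factors, AGGTGT for T-box factors, TNAAGTG for NKX2 factors, GGAATG for TEAD, CTAATG for ISL1, GTAAACA for forkhead factors, TCAGGT for SIX-family factors, TGANTCA for AP-1 and, by its name alone, a CTCF motif with open positions. The end of the SIX-type letters is the beginning of the T-box letters, so a run of bases can match both. A match is a run of letters and not a bound site.

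GATA letters were the most frequent, in 30 of the 117 regions (25.6%), beside 21.6% of all shared regions. NKX2 letters were in 20.5%, beside 16.3%, and ISL1 letters in 12.8%, beside 9.07%. TEAD letters were in 18.8%, beside 20.3%, T-box letters in 11.1%, beside 13.0%, and AP-1 letters in 11.1%, beside 11.4%. Forkhead letters were in 4.27%, beside 3.79%. SIX-type letters were in 6.84%, beside 12.8%, and CTCF letters in 1.71%, beside 5.62%. In each case, in these 300 bp, the share of all regions lay inside the exact 95% binomial interval of the 117 (18.0% to 34.5% for GATA and 0.208% to 6.04% for CTCF), which covers counting error only. The same held in the 200 bp around the midpoint. In whole regions, which differ in length, it held for 7 of the 9 motifs, while SIX-type letters were in 14 of the 117 regions (interval 6.70% to 19.3%), beside 21.7% of all regions, and CTCF letters in 2.56% (interval 0.532% to 7.31%), beside 7.67%. Whether the shares of these 2 motifs lay apart from the background thus depended on how much of each region was searched.

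Over the genes, GATA letters were in 11 of the 27 Isl1 regions, 8 of 22 at Fgf10, 7 of 24 at Eya1, 2 of 26 at Fgf8 and 2 of 18 at Six2. The share over all shared regions was 21.6%. These counts are small, and differences among the genes were not tested. The sequences printed above show the range: Fgf10 +44.4 kb holds a GATA and an NKX2 match, Six2 +102.4 kb holds 2 T-box matches, Six2 +109.2 kb a GATA match and Fgf8 -47.9 kb an AP-1 match. Isl1 +122.5 kb, Isl1 +698.8 kb, Isl1 -402.7 kb and Eya1 -196.7 kb hold none of the letters in the 200 bases shown.

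**Figure D5:**
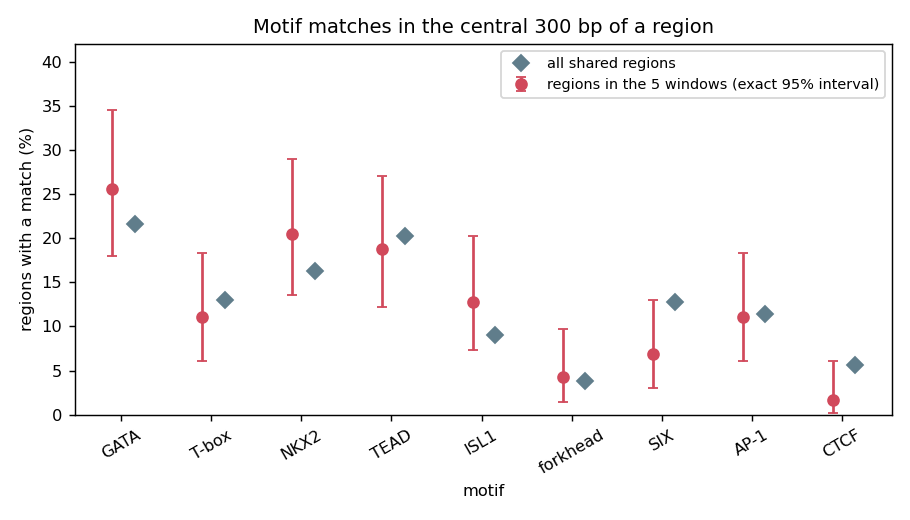
Share of regions in % (vertical axis) with a motif match in the 300 bp around the midpoint, by motif (horizontal axis), with circles for the 117 regions of the 5 windows (bars are exact 95% binomial intervals) and diamonds for all shared regions. Each diamond lies within the bar beside it, including SIX-type letters (6.84% against 12.8%) and CTCF (1.71% against 5.62%).

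Genes that work with these 5 were described by their start regions, beside the 68.1% of all genes that had one. FGF receptors and targets had one at 11 of 11 genes. The receptors Fgfr1 (22.5 and 19.4) and Fgfr2 (19.0 and 22.1), which bind FGF ligands, were slightly above the Fgf10 start, Fgfr3 (mean 12.9) was below it in each replicate, and Fgfr4 was low (4.62 and 4.78). The target genes differed widely among themselves. The highest were Etv5, a transcription factor (53.5 and 49.0), Spry2, an inhibitor (40.7 and 35.9), and Dusp6, a phosphatase (35.9 and 34.9). Spry1 (21.5 and 22.9) was at about the level of Fgfr1 and Fgfr2, and Etv4 (13.0 and 10.6) and Spry4 (14.1 and 15.3) were below them and below the Fgf10 start. Shared start regions were thus found at the listed receptor and target genes and at Fgf10. Fgf8 had only the weak peaks of 3.26 and 3.52, which did not overlap.

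Of 9 other genes of the SIX-family, Eya and Dach network, 8 had a start region, all but Eya2. Six5 (31.2 and 29.9), the highest of them, and Six4 (23.6 and 21.4) were above Six2 (20.4 and 13.1) in each replicate, while Six3 (4.89 and 4.02) and Six6 (5.98 and 6.54) were low. Of genes whose products work with ISL1, 6 of 7 had a region, with 29.9 and 29.2 at Ldb1, a LIM-domain adaptor, and none at Kdm6b, a histone demethylase. Of other second heart field genes, 20 of 22 had one, all but Foxh1 and Hoxb1. Among these, the transcription factor genes Hand2 (25.0 and 22.1) and Mef2c (23.1 and 23.1) lay between Isl1 and Fgf10, and Tbx1 (6.25 and 6.28) was far lower in both replicates.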

How the data were processed

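ATAC-seq was made from 2 replicates of E11.5 FVB hearts. Per the study's methods and processing notes, the authors trimmed 50 bp single-end reads with Trim Galore 0.6.6 and Cutadapt, aligned them to mm10 with Bowtie2 2.4.2, filtered them with SAMtools 1.12 and called peaks with MACS2 on each replicate, without a local background. The deposited lists give a score, a fold enrichment (a ratio), −log10 p and −log10 q values and a summit offset per peak, and the authors did not pool replicates. Filters on duplicates and mapping quality lower the signal in repeated sequence.

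From these lists, shared regions, their annotation by GENCODE M21, windows, gene deserts over 500 kb, motif matches, soft-masked bases and 32-mer copies were computed with Python 3.11.15, pandas 2.3.3, NumPy 2.4.6, SciPy 1.17.1 and pysam 0.24.0; the overlap and counting steps were tested on simulated data. Each region carries the highest peak of each replicate that overlaps it. Distances in kb that name a region run from its midpoint to the outermost start of a protein-coding transcript of the gene. Distances to the nearest gene run from the midpoint to any annotated start of a protein-coding gene. The 3482 bp at Fgf8 and the 3531 bp at Eya1 run from the start named there to the edge of the region. Ranks among all genes or deserts are descriptions, and no test was run, since there is 1 group. Hearts of a replicate are pooled, so the spread between replicates is that of 2 pools.

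The genes are found by name alone, but they, the lists and the settings were chosen with earlier results of these data known. Named regions were those at member starts, the 3 strongest distal regions, the nearest and the farthest of each window, and the 5 strongest of each desert stretch; members of the gene lists and neighbours in a window were named with them, and further regions were named after their values were seen. Alternatives were a p limit of 0.00001, a q limit of 1e-10, a reciprocal overlap of 50%, each replicate alone, other distances, flanks, desert bounds and motif windows, covered base pairs, and, added after the data were seen, leaving out regions with over 50% soft-masked bases. A gene of the partner list and a sequence are not reported here.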

Additional observations from a re-analysis of the deposited data

How the results depend on the processing

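No paired analysis was possible because there is only 1 group to compare. Fgf8 stayed without a shared start region, and the other 4 genes with one, under the p limit, the q limit, the reciprocal overlap, start distances of 500 bp and 2 kb, protein-coding starts alone and the exclusion of regions with over 50% soft-masked bases. With 1 replicate alone all 5 genes had a start peak (4 to 5 genes), start regions numbered 10 to 12, window regions 144 to 147 and desert regions 59 to 65. At q of at most 1e-10 the counts fell to 4 start regions, 51 window regions and 22 desert regions, since fewer peaks enter. Window regions numbered 69 with flanks of 100 kb and 206 with flanks of 500 kb, by construction. With lncRNA genes as bounds, the upstream stretch shrank to 249 kb with 13 regions. The other alternatives left the counts of start, window and desert regions within 1.5 times. By base pairs covered, the ranks among genes were 36.6% for Isl1, 33.3% for Fgf8, 22.6% for Fgf10, 26.2% for Six2 and 25.4% for Eya1, all lower than by regions. With the peaks of replicate 1 alone they were 50.4%, 53.4%, 24.5%, 40.9% and 29.1% in the same order, and with those of replicate 2 alone 47.8%, 48.5%, 31.1%, 36.0% and 31.4%, so Isl1 and Fgf8 passed the median gene in replicate 1 alone. Weak peaks near the detection limit and unknown depth limit any statement on absent regions.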

Other observations

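Few regions were made mostly of repeats: 2 of the 117 regions in the windows of the 5 genes (1.71%) had more than 50% of their bases soft-masked in the reference, beside 2.74% of all shared regions. Of the 31 named regions searched, the Fgf8 +194.5 kb array had the lowest share of 32-mers that occur once (80.4%), followed by Six2 +102.4 kb (89.2%).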
